A study of Mus musculus with 12 samples.

Results

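The genes described here are 9 feedback inhibitors of mitogen-activated protein (MAP) kinase signaling, namely the dual-specificity phosphatases Dusp1, Dusp4, Dusp5, Dusp6, Dusp10 and Dusp14 and the Sprouty genes Spry1, Spry2 and Spry4. They were chosen by name, through probe sets annotated to exactly 1 gene, and are 9 of 17656 genes measured. Each had 1 such probe set, namely 10449284 for Dusp1, 10571312 for Dusp4, 10463945 for Dusp5, 10366043 for Dusp6, 10352448 for Dusp10, 10389238 for Dusp14, 10491721 for Spry1, 10422227 for Spry2 and 10458555 for Spry4. The chronic social defeat (CSD) group held 6 wild type male C57BL/6 mice and the homecage (HC) group 6 wild type males, whose strain is not stated separately, with 1 Affymetrix Mouse Gene 1.0 ST array of the medial prefrontal cortex (mPFC) per mouse. A CSD mouse lived for 14 days next to an aggressive CD-1 male behind a perforated partition, which was removed for 5 min each day, and its tissue was taken 24 h after the last encounter. HC mice were housed in groups, so that defeat and housing cannot be told apart, and CSD mice had passed behavioral inclusion tests. The mice were adult, with no age stated in the sources used. The dissection held all cell types of the tissue, and in such bulk samples fewer cells of a type and less RNA per cell cannot be told apart.

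MAP kinases carry signals from receptors of growth factors, neurotransmitters and stress to the nucleus. In the ERK branch, active ERK induces genes for its own inhibitors: phosphatases of the Dusp family remove the activating phosphates from MAP kinases, and Sprouty proteins act further up, between receptor tyrosine kinases and RAF. In neurons several of these genes behave as activity-regulated genes, induced along with Fos and the Egr transcription factors. The comparison asks whether their expression in the mPFC differed between defeated and homecage mice.

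The values are log2 values of the robust multi-array average (RMA), deposited by the authors, so that a difference of 1 is a doubling. A probe set was kept if any array exceeded a noise level of 5.75, and all 9 genes exceeded it on 12 of 12 arrays. The arrays had medians between 7.50 and 7.69, and the arrays of a group resembled each other, with a median r to their fellows of 0.995 to 0.996 for CSD and 0.991 to 0.994 for HC. HC replicates 2 and 6 stood apart with the lowest of these correlations, 0.992 and 0.991, so that results resting on them are given also without both. All 6 measured markers of excitatory cortical neurons, such as Slc17a7 and Tbr1, lay above noise on every array. So did all 4 measured markers of striatal neurons, a neighboring tissue. The same held for 3 of 4 measured markers of choroid plexus, 4 of 5 of meningeal fibroblasts and 2 of 2 of red blood cells. Values above noise therefore do not tell which tissues the dissection held, and the share over all measured genes is not given here. Of 11 measured markers of myelinating oligodendrocytes, 11 were lower in CSD at an unadjusted p under 0.05 in limma, against 6.52% of all measured genes. The linear values of the list summed to between 9398 and 13109 on CSD arrays and between 14048 and 19526 on HC arrays.

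Each of the 9 genes had a lower mean in CSD than in HC mice, against 57.1% of all measured genes, but none of the differences passed the adjustment over all probe sets, and the sign of Dusp4, Dusp14, Spry2 and Spry4 turned when arrays were left out or scaled otherwise. Dusp1 had the widest difference, with a mean 25.8% lower in CSD, followed by Dusp6 at 15.1% and Dusp10 at 11.4%, while the means of the other 6 genes were lower by 4.71% or less. The median log2 difference (CSD minus HC) was −0.06 over the 9 genes and −0.01 over all measured genes. It depended on single arrays, being −0.01 without HC replicate 2 (0.0090 over all measured genes), and −0.10 without HC replicate 1. Leaving out CSD replicate 6 gave −0.04, and CSD replicate 9 gave −0.09 when omitted. Dusp14 turned to 0.00099 with quantile normalization, Spry2 to 0.01 with array weights, and 5 of 9 genes instead of 9 were lower when HC replicates 2 and 6 were left out.

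A call needed an adjusted p under 0.05 (limma, Benjamini-Hochberg over 29838 probe sets) and a fold change of at least 1.2. Of the 9 genes, limma called 0 and the methods' t-test as run here 0, beside 0% of all probe sets in limma. In limma 8.43% of probe sets had an unadjusted p under 0.05 in either direction. The paper's own list of significantly lower genes, with a fold limit of 1.2, does include Dusp1. With p left unadjusted and the fold limit kept, limma gave 1 of 9 genes as lower, Dusp1, where 0.600% of all measured genes were lower, and 0 as higher, where 0.0793% were. Without the fold limit it gave 3 of 9 as lower, Dusp1, Dusp6 and Dusp10, against 6.52% of all measured genes, and 0 as higher, against 1.89%. With HC replicates 2 and 6 left out, only 1 of the 9, Dusp10, stayed under 0.05 in limma. The methods' t-test gave 2 of 9 as lower without the fold limit, Dusp1 and Dusp10, against 6.39% of all measured genes. CSD and HC arrays overlapped for all 9 genes, whereas for 0.935% of all measured genes the 6 CSD values lay wholly below the HC values.

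**Figure D1:**
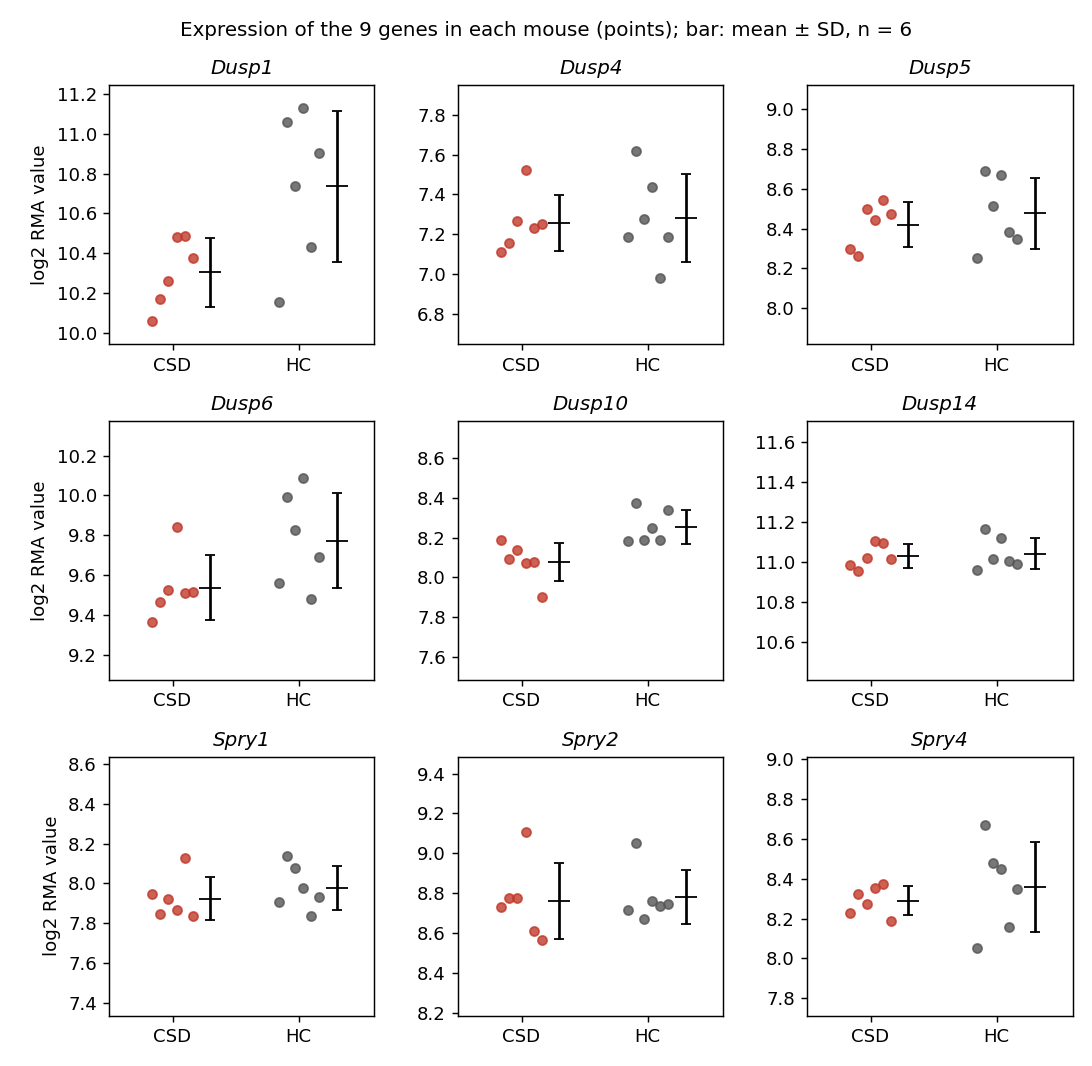
Log2 RMA value (vertical axes, each spanning the same width) of the 9 genes in each mouse, with CSD mice in red on the left and HC mice in grey on the right of each panel, and bars for mean ± SD beside the points (n = 6 mice per group). The groups overlap for every gene, and 4 HC mice lie above all CSD mice for Dusp1.

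Sequences just before the start of transcription are shown for the 3 genes with the smallest p, Dusp1, Dusp6 and Dusp10, and for Dusp5, whose level followed Dusp1 from mouse to mouse. They were taken from RefSeq (build GRCm38.p6), where 7 of the 9 genes matched a promoter entry. Capitals mark matches on either strand to the cAMP response element (CRE, TGACGTCA, bound by factors of the CREB family), its half-site TGACG, the AP-1 site TGANTCA, the CArG box, which binds serum response factor, and the CCAAT box (CCAAT). A full CRE contains the half-site on both strands, and a match on the opposite strand reads CGTCA or ATTGG here. Each line gives the 200 bases before the start in the direction of transcription.
Dusp1 (chr17:26508473-26508672, minus strand): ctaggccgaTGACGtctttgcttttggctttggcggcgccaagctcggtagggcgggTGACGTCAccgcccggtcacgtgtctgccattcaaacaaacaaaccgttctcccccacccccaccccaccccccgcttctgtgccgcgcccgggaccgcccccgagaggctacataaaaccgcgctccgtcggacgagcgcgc
Dusp5 (chr19:53528945-53529144, plus strand): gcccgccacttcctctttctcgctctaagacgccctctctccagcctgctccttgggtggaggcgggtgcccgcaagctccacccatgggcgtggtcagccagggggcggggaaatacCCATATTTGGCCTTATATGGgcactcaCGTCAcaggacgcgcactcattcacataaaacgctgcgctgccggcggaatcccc
Dusp6 (chr10:99263031-99263230, plus strand): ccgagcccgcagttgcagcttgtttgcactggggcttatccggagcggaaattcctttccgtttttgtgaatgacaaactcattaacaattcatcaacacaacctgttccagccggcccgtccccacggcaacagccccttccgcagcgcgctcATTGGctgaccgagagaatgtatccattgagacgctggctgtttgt
Dusp10 (chr1:184034181-184034380, plus strand): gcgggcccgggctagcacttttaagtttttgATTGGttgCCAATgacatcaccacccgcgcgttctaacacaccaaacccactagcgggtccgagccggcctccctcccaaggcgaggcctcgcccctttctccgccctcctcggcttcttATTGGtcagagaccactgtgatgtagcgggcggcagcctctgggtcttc

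Of the 7 promoters searched over 250 bases, that of Dusp1 held a CRE, at positions −143 to −136 counted from the start, and a further half-site at −191 to −187. A CRE was found in 1.55% and a half-site in 17.8% of the 32851 promoters of that length. Dusp5 held 2 adjoining CArG boxes between −82 and −63, a motif present in 1.47% of all promoters, and a half-site at −55 to −51. Dusp10 held 3 CCAAT boxes, Dusp6 held 1 and Spry1 held 1, where 33.8% of all promoters have at least 1. No match to the AP-1 site, found in 6.75% of all promoters, lay in these windows, and Dusp14 and Spry2 held none of the motifs searched. These matches describe the letters of the windows and were not linked to expression by a test.

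Dusp1, the founding MAP kinase phosphatase, acts in the nucleus on p38, JNK and ERK and is itself an immediate early gene. Its log2 value ran from 10.06 over a median of 10.32 to 10.49 in CSD mice, and from 10.16 over a median of 10.82 to 11.13 in HC mice. All 6 CSD mice lay below the HC mean and 4 HC mice lay above all CSD mice, but HC replicate 1 was lower than 5 of the 6 CSD mice. Dusp1 averaged 10.31 ± 0.17 in CSD and 10.74 ± 0.38 in HC (SD, n = 6 each). The log2 difference was −0.43 (standard error 0.15, 95% interval −0.76 to −0.10, adjusted p = 0.453 from limma, unadjusted p = 0.0149), and an exact permutation test over the 924 splits of the arrays gave a two-sided p of 0.0390. Leaving out HC replicates 2 and 6 together reduced it to −0.31 (unadjusted p = 0.0895 from limma), while leaving out HC replicate 1 moved it to −0.55 (adjusted p = 0.225 from limma).

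Dusp6 is a cytoplasmic phosphatase that acts on ERK and is a widely used readout of ERK activity. It ran from 9.36 over a median of 9.51 to 9.84 in CSD mice and from 9.48 over a median of 9.76 to 10.08 in HC mice. CSD replicate 8 was well above the other 5 CSD mice, which lay at or below 9.53, and 2 CSD mice were below all HC mice. The means were 9.54 ± 0.16 in CSD and 9.77 ± 0.24 in HC (SD, n = 6 each), a log2 difference of −0.24 (standard error 0.11, adjusted p = 0.585 from limma, exact permutation p = 0.0779, two-sided). Its unadjusted p in limma, 0.0479, lay just below the threshold and exceeded it in 9 of the 12 fits that left out 1 array, while leaving out CSD replicate 8 gave −0.30 (unadjusted p = 0.0132). Without HC replicates 2 and 6 together the difference was −0.20 (unadjusted p = 0.126 from limma).

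Dusp10 directs its activity to JNK and p38 rather than ERK. It ran from 7.90 over a median of 8.08 to 8.19 in CSD mice and from 8.18 over a median of 8.22 to 8.37 in HC mice. The groups overlapped only through CSD replicate 2, at 8.19, which lay just above the 3 lowest HC mice, so that 5 of 6 CSD mice were below all HC mice. The means were 8.08 ± 0.10 in CSD and 8.25 ± 0.08 in HC (SD, n = 6 each). The log2 difference of −0.17 (standard error 0.05, 95% interval −0.29 to −0.06) had the smallest p of the 9 genes, with an adjusted p of 0.344 from limma and an exact permutation p of 0.00866 (two-sided), at a size below the fold limit. It was −0.12 without HC replicates 2 and 6 (unadjusted p = 0.0357 from limma).

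The remaining phosphatases, Dusp4, Dusp5 and Dusp14, differed by less than the spread between mice. Dusp4, a nuclear phosphatase related to Dusp1, lay between 7.11 and 7.52 in CSD and between 6.98 and 7.62 in HC, with a log2 difference of −0.02 (95% interval −0.24 to 0.19). Dusp5, a nuclear phosphatase that acts on ERK, lay between 8.26 and 8.54 in CSD and between 8.25 and 8.69 in HC, with a difference of −0.06 (95% interval −0.23 to 0.12). For both genes all 6 CSD mice lay within the HC range. Dusp14, a small atypical phosphatase without the kinase-binding domain of the others, lay between 10.95 and 11.11 in CSD and between 10.96 and 11.16 in HC, with a difference of −0.01 (95% interval −0.11 to 0.08). Exact permutation p-values were 0.820 for Dusp4, 0.509 for Dusp5 and 0.717 for Dusp14 (two-sided), and adjusted p-values from limma were 0.897 or more.

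The Sprouty genes, whose proteins restrain growth factor signaling, also differed by less than the spread between mice. Spry1 lay between 7.84 and 8.13 in CSD and between 7.84 and 8.14 in HC, a log2 difference of −0.05 (95% interval −0.19 to 0.08, exact permutation p = 0.398, two-sided). Spry2, which restrains signaling from fibroblast growth factor receptors, lay between 8.56 and 9.11 in CSD and between 8.67 and 9.05 in HC, a difference of −0.02 (95% interval −0.21 to 0.17, exact permutation p = 0.799, two-sided). In each group 1 mouse stood well above the rest for Spry2, CSD replicate 8 and HC replicate 2. Spry4 lay between 8.19 and 8.37 in CSD and between 8.05 and 8.67 in HC, a difference of −0.07 (95% interval −0.26 to 0.12, exact permutation p = 0.498, two-sided). All 6 CSD mice lay within the wider HC range of Spry4, and the intervals of Spry1, Spry2 and Spry4 leave room for changes in either direction.

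**Figure D2:**
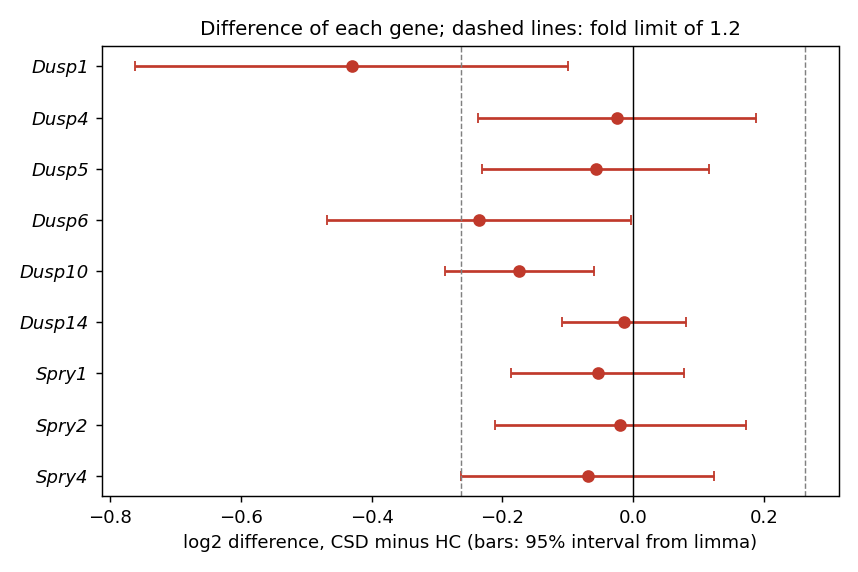
Log2 difference, CSD minus HC (horizontal axis), of the 9 genes (vertical axis), with 95% intervals from limma, n = 6 mice per group, and dashed lines at the fold limit of 1.2. The intervals of Dusp1, Dusp6 and Dusp10 lie below 0 before adjustment, and those of the other 6 genes include 0. With HC replicates 2 and 6 left out, Dusp4, Dusp14, Spry2 and Spry4 turn slightly positive.

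The spread between mice of a group was wide for several of these genes and narrow for others. The within-group SD of Dusp1, 0.29 on the log2 scale, exceeded that of 99.5% of all measured genes, and those of Dusp6 and Dusp4, 0.20 and 0.19, exceeded 97.6% and 96.3%. By contrast, the SD of Dusp10 (0.09) exceeded that of 44.3% and the SD of Dusp14 (0.07) that of 21.8% of genes. For Dusp1 the SD was 0.17 in CSD and 0.38 in HC mice, and for Spry4 it was 0.07 in CSD and 0.23 in HC mice, a difference in spread that was not tested. In HC replicates 1 and 5 all 9 genes lay below the HC mean, and in HC replicate 2 all 9 lay above it, 6 of them at the highest value of all 12 mice. HC replicate 2 had the highest median of all arrays, 7.69, and over all measured genes 81.7% lay above their HC mean in it and 40.7% had their highest value of the 12 mice there. In HC replicates 1 and 5, 33.6% and 36.7% of all measured genes lay above their HC mean.

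Much of this spread was shared among the genes. After the mean of its group was subtracted from each value, 36 of 36 pairs of the 9 genes had a positive Pearson correlation over the 12 mice, with a median r of 0.60, and 16 pairs had an r over 0.7. These correlations are descriptions over 12 mice whose values come from the same RNA and the same normalization. The share of positive pairs among all measured genes was not computed. Dusp4 and Dusp6 were the closest pair (r = 0.93, Spearman's rho = 0.93), with an r of 0.99 in the 6 CSD mice and 0.90 in the 6 HC mice. Dusp5 followed Dusp14 (r = 0.88, rho = 0.90), and Dusp1 followed Dusp5, Spry4 and Dusp6 alike (r = 0.82 each). Dusp10, Spry1 and Spry2 took the least part, with a median r with the other 8 genes of 0.25 for Dusp10, 0.46 for Spry1 and 0.48 for Spry2, and the lowest r of all was that of Spry1 and Spry2 at 0.05. Dusp10 and Dusp1 had an r of −0.53 in the 6 CSD mice and 0.71 in the 6 HC mice, a contrast that was not tested. In the 6 HC mice every pair was positive, while in the 6 CSD mice several other pairs were also negative. Among these were Dusp5 and Dusp10 at −0.37 and Spry1 and Spry2 at −0.34. Without HC replicates 2 and 6 the median r was 0.49 and Dusp4 and Dusp6 reached 0.96. Several pairs then lay below 0, the lowest being Spry1 and Spry2 at −0.32.

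**Figure D3:**
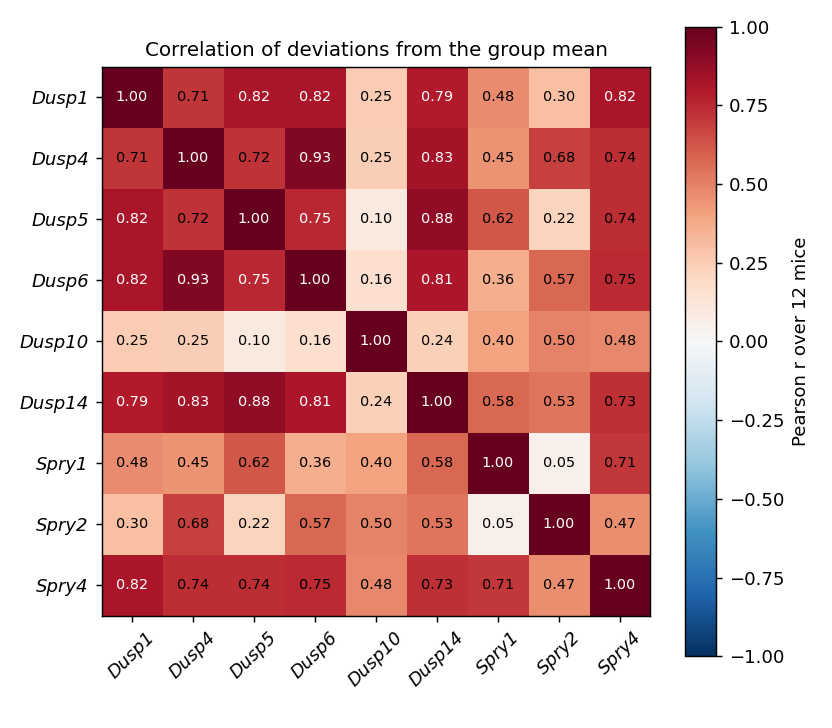
Pearson correlation (colour and number) between the 9 genes over 12 mice, after the group mean was subtracted. Dusp1, Dusp4, Dusp5, Dusp6, Dusp14 and Spry4 form a block of high values, with 0.93 for Dusp4 and Dusp6, while the values of Dusp10 lie between 0.10 and 0.50.

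For several of the 9 genes the deviations ran with those of a list compiled as ERK target genes, which includes activity-induced genes such as Npas4. Set against the mean of 24 ERK-induced transcription factors and other ERK target genes, the deviations correlated at r = 0.93 for Dusp14, 0.90 for Dusp1 and Dusp6, 0.87 for Dusp5 and Dusp4, and 0.75 for Spry4. Spry2 and Spry1 had an r of 0.49 each, and Dusp10 one of 0.18. Deviations entered that mean unscaled, so genes with a wide spread weighed most. The SD in HC mice was 0.83 for Npas4 and 0.10 for Epha4, both of that list. The r of all measured genes with that mean was not computed, and a cause of the shared spread was not tested. Without HC replicates 2 and 6, Dusp1 and Dusp14 had an r of 0.91 and 0.94 with that mean, while Spry1 had 0.34, Spry2 0.31 and Dusp10 −0.08. With the mean of the myelinating oligodendrocyte markers, the r of the 9 genes lay between −0.37 for Dusp4 and 0.38 for Dusp10, with 0.06 for Dusp1. With the median of the array it lay between 0.21 for Dusp6 and 0.65 for Spry1, and the part of the array median in the shared spread was not tested beyond centring the arrays on it, which left a median r of 0.49 among the 9 genes.

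**Figure D4:**
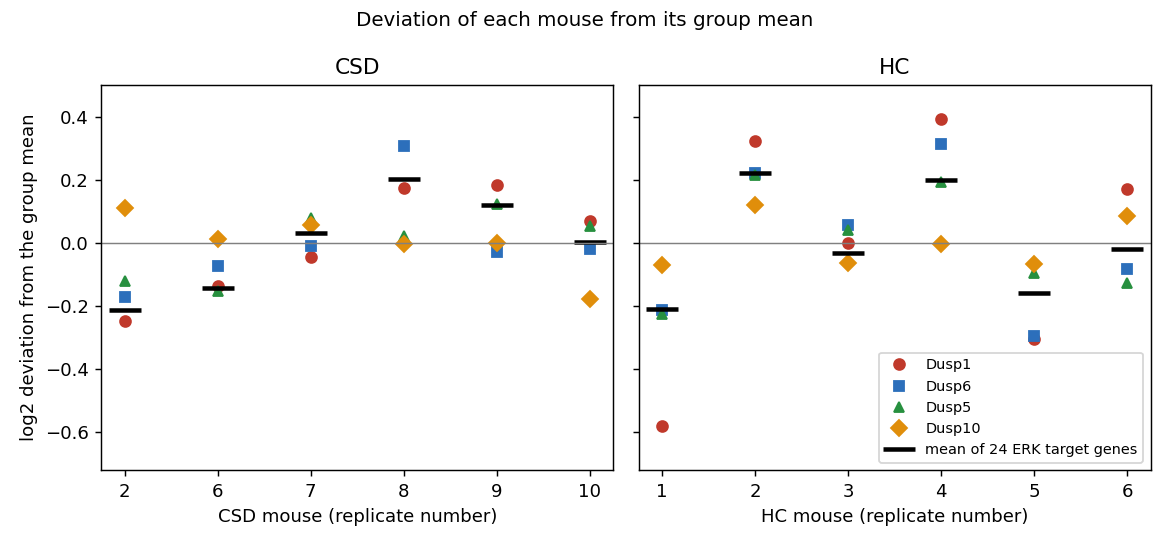
Log2 deviation from the group mean (vertical axis) of Dusp1, Dusp6, Dusp5 and Dusp10 (coloured points) and of the mean of 24 ERK target genes (black bars) in each mouse, with CSD mice on the left and HC mice on the right, ordered by replicate number. Dusp1, Dusp5 and Dusp6 lie on the same side as the black bar in HC replicates 1, 2, 4 and 5, where Dusp10 deviates less.

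Over all 17656 measured genes, those most like each member in its deviations included some known activity-regulated genes, but most were outside the ERK target list. Dusp6 was followed most closely by Stk40, a pseudokinase gene (r = 0.97, rho = 0.98), and Egr2, an immediate early transcription factor (r = 0.96, rho = 0.95). Dusp1 was followed by Synj2, an inositol phosphatase (r = 0.94), and Gramd3 (r = 0.92), with Fos next (r = 0.92), named after its value was seen. Dusp14 was followed by Galnt10, a glycosyltransferase (r = 0.96), and Gadd45b, a stress-induced and activity-induced gene (r = 0.95). Dusp4 was followed by Bop1 and Kri1, both of ribosome assembly (r = 0.95 and 0.94), and Dusp5 by Cyp21a1, which has a near-identical pseudogene, and Dhrs13 (r = 0.94 and 0.93). For Dusp10 the closest genes were Coq10a, of coenzyme Q function (r = 0.92), and Lrrc28 (r = 0.91), and next, named after its value was seen, came another phosphatase, Dusp15 (r = 0.90). Spry1 was closest to Topors and Gpx7 (r = 0.94 and 0.93), Spry2 to Jph3 and Cadm4 (r = 0.93 and 0.91), and Spry4 to Rcor2 and Cdk2ap2 (r = 0.94 each). These are the highest of many correlations over 12 mice and carry no test.

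The ERK target genes themselves had log2 differences in both directions between CSD and HC mice, from −0.61 to 0.20, with a median of −0.06. On average 17 of 24 were lower, where 57.1% of all measured genes were. At an unadjusted p under 0.05 in limma, 1 of the 24 was lower and 0 were higher, against 6.52% and 1.89% of all measured genes. After adjustment 0 were called. Junb, a partner of Fos in the AP-1 factor, averaged 7.81 ± 0.12 in CSD and 8.06 ± 0.23 in HC (SD, n = 6 each), a log2 difference of −0.25 (adjusted p = 0.494 from limma). Npas4, a transcription factor induced by neuronal activity, averaged 8.37 ± 0.35 in CSD and 8.98 ± 0.83 in HC (SD, n = 6 each), a difference of −0.61 that was within the spread of the HC mice (exact permutation p = 0.134, two-sided). Among other genes of this response, named after their values were seen, Fos, Egr1 and Arc had differences of −0.25, −0.22 and −0.32, and Fosb, Fosl2 and Egr3 of the same list had differences of 0.20, 0.19 and 0.13, with an unadjusted p above 0.05 in limma for all 6.

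Among 11 other dual-specificity phosphatases, 2 were lower and 0 higher at an unadjusted p under 0.05 in limma, with a median log2 difference of −0.02 and 0 called. The shares over all measured genes were 6.52% lower and 1.89% higher. Dusp15, an atypical phosphatase, averaged 8.32 ± 0.08 in CSD and 8.49 ± 0.13 in HC (SD, n = 6 each), a difference of −0.17 (adjusted p = 0.453 from limma), the size seen for Dusp10. Dusp7, which acts on ERK in the cytoplasm like Dusp6, differed by −0.09 (adjusted p = 0.549 from limma). The Sprouty and Spred family shares the inhibition of the RAS-to-ERK route. Of its 4 other genes, 0 were lower and 1, Spred1, was higher at an unadjusted p under 0.05 in limma. Spred1 averaged 11.04 ± 0.09 in CSD and 10.89 ± 0.09 in HC (SD, n = 6 each). Its difference was 0.15 (adjusted p = 0.427, unadjusted p = 0.0114, both from limma), and Spry3 differed by −0.06 (adjusted p = 0.797 from limma).

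Upstream of the feedback genes, lower means were found at some adaptors and receptors. Over all measured genes, 6.52% were lower and 1.89% higher at an unadjusted p under 0.05 in limma. Of 16 measured genes of the RAS-RAF-MEK-ERK cascade, 4 were lower and 0 higher at an unadjusted p under 0.05 in limma, with a median of −0.05. Gab1, a docking protein that links receptors to RAS and phosphoinositide signaling, averaged 9.11 ± 0.12 in CSD and 9.47 ± 0.14 in HC (SD, n = 6 each), a log2 difference of −0.37 (standard error 0.07, adjusted p = 0.133 from limma), and Rras, a RAS-related GTPase, differed by −0.20 (adjusted p = 0.235 from limma). Of 24 upstream receptors and growth factors, 3 were lower and 0 higher at an unadjusted p, with a median of −0.02. Fgfr2, a receptor for fibroblast growth factors, averaged 8.76 ± 0.09 in CSD and 9.04 ± 0.10 in HC (SD, n = 6 each), a difference of −0.28 (adjusted p = 0.144 from limma), and Erbb3, a neuregulin receptor, one of −0.24 (adjusted p = 0.241 from limma). For Gab1, Rras and Fgfr2, and for Ptpn11, a phosphatase of the RAS-RAF-MEK-ERK list named after its value was seen (difference −0.10), the CSD values lay wholly below the HC values, as they did for 0.935% of all measured genes, and the exact permutation p of each was 0.00216 (two-sided), the smallest that 924 splits can give. Fgfr2 and Erbb3 are known to be expressed in oligodendrocytes, whose 11 measured markers had a median difference of −0.64 on these arrays, with Mog and Gjc3 at −0.84 and −0.68 (adjusted p = 0.0986 and 0.0673 from limma) and none at noise on all arrays. The part of oligodendrocytes in these differences, those of Gab1 and Rras included, was not tested.

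The other branches held differences in both directions. Of 16 measured genes of the JNK, p38 and ERK5 cascades, 1 was lower and 0 higher at an unadjusted p under 0.05 in limma, with a median of −0.0027. At that threshold 6.52% of all measured genes were lower and 1.89% higher. Mapkapk2, a kinase activated by p38, differed by −0.14 (adjusted p = 0.457 from limma), and Mapk8, which encodes JNK1, by 0.07 (adjusted p = 0.680 from limma). Of 10 measured nuclear ERK substrates and CREB-type factors, 1 was lower and 1 higher, namely Elk4, a partner of serum response factor, at −0.10 (adjusted p = 0.554 from limma), and Rps6ka3, the ERK-activated kinase RSK2, at 0.21 (adjusted p = 0.424 from limma). None of the genes of these lists was called after adjustment by limma.

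**Figure D5:**
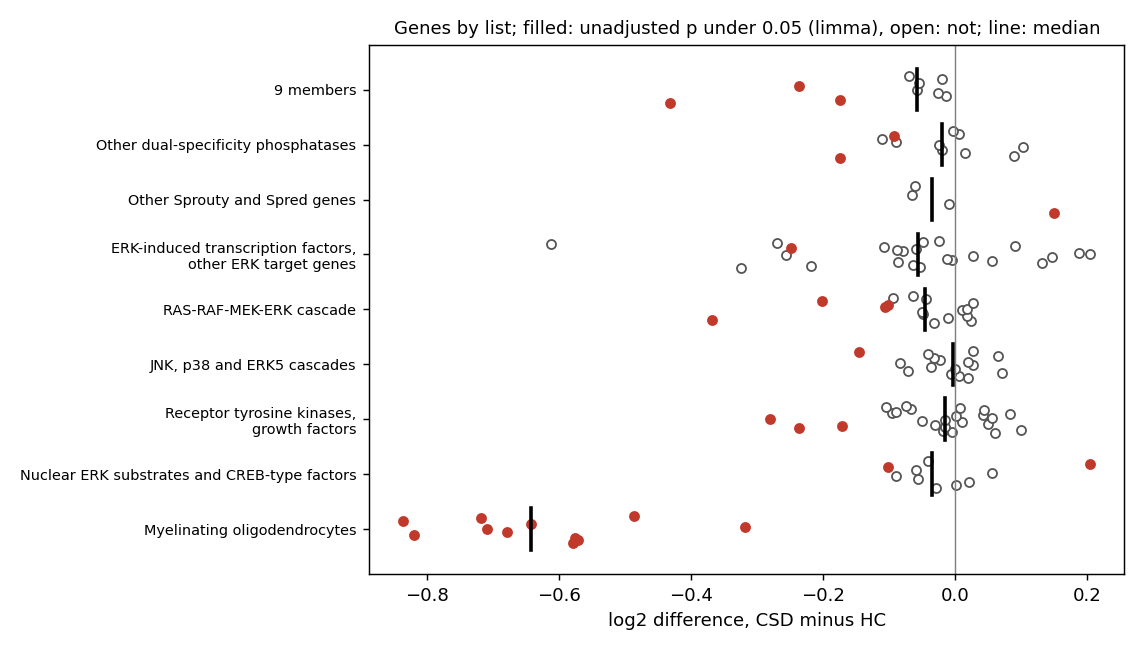
Log2 difference, CSD minus HC (horizontal axis), of every measured gene (points) of the 9 feedback genes, 7 pathway lists and the myelinating oligodendrocyte markers (vertical axis), with filled points for an unadjusted p under 0.05 in limma and black lines for medians. The medians of the pathway lists lie between −0.06 and 0, and that of the oligodendrocyte markers at −0.64.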

How the data were processed

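Total RNA (200 ng per mouse) was hybridized to Affymetrix Mouse Gene 1.0 ST arrays, 1 per mouse. The values used are log2 expression values that the authors deposited after RMA in Affymetrix Expression Console (versions: not given in the sources used here). RMA includes a quantile step meant to align arrays, yet the medians of the deposited values still differed between arrays, so centring and quantile normalization were tried as alternatives.

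Of 35556 probe sets, 29838 exceeded noise on at least 1 array and stayed in the fit, with values under noise set to the noise level. The methods define noise by a curve without stating a value; here it was set at 5.75, the 20th percentile of the table. CSD and HC arrays were compared with the lmFit and eBayes functions of limma (version 3.58.1, run in R 4.3.3; no covariates, p-values adjusted by Benjamini-Hochberg across the 29838 probe sets), tested on simulated data. The methods' t-test (Welch) was an alternative. Arrays have no read depth, and the number of mice limits the precision. The brightest probe set stood for a gene. The platform annotation, of 2016, gives 1 gene for 21789 probe sets, several for 1621 and none for 12146, and 6 genes of the RAS-RAF-MEK-ERK list were not measured by a probe set of their own.

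Named were the 9 members, the 2 genes with the smallest p of each pathway list and of the oligodendrocyte markers, and the 2 genes most like each member in deviations from the group means. Other names are background or were chosen after seeing values. The members and all lists were chosen with earlier results of these data known. Plots were made in Python 3.11.15 (matplotlib 3.10.9). Alternatives covered the test, adjustment, fold limit, floor, filter, noise level, probe sets tested, scaling, variance model, array weights, replicate block, probe set summary and each array left out. Leaving out HC replicates 2 and 6 together, and the alternatives for the correlations among members, were added after seeing the data.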

Additional observations from a re-analysis of the deposited data

Results flagged for a closer look

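In 18 groups of 6 values examined (9 genes in CSD and in HC), 2 had a value whose gap to the nearest other exceeded Dixon's 95% limit, where chance gives about 1 in 20. For Dusp6, CSD replicate 8 lay at 9.84 on the log2 scale with the next CSD mouse at 9.53, a gap of 0.66 of the range of the group. For Spry2, HC replicate 2 lay at 9.05 with the next HC mouse at 8.76, a gap of 0.773 of the range.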

How the results depend on the processing

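Over 27 alternative settings, Dusp1, Dusp5, Dusp6, Dusp10 and Spry1 kept a negative difference. Only scaling, array weights, the replicate block and leaving out arrays could change the differences of the 9 genes. The other settings left these differences as they were and say nothing about their sign. The median difference of the 9 genes lay between −0.10 and −0.01 when single arrays were left out, and was −0.04 with array weights and −0.03 without HC replicates 2 and 6 together. Under the settings with adjusted p-values, 0 of the 9 genes were called, and without adjustment 1 was, Dusp1. The count at an unadjusted p was 3 without a fold limit and 0 with a fold limit of 1.5. Without HC replicates 2 and 6 together it was 0 with the fold limit of a call kept. Without a fold limit it was then 1, Dusp10. When single arrays were left out, it lay between 1 and 2 with the fold limit of a call kept. It was 2 without HC replicate 1, HC replicate 5 or CSD replicate 8. Without a fold limit, leaving out single arrays gave 2 or 3 genes, always with Dusp1 and Dusp10 among them. The count of genes without overlap between groups lay between 0 and 1 when single arrays were left out, the 1 being Dusp10 without CSD replicate 2. The sign of Dusp14 turned with quantile normalization (0.0009868) and that of Spry2 with array weights (0.01341). Over the fits that left out 1 array, Dusp4 lay between −0.08435 and 0.04239 (positive without HC replicate 2, HC replicate 4 or CSD replicate 2), Dusp14 between −0.02971 and 0.01083 (positive without HC replicate 2, HC replicate 4 or CSD replicate 6) and Spry2 between −0.08856 and 0.03505 (positive without HC replicate 2, CSD replicate 9 or CSD replicate 10). Without HC replicates 2 and 6 together, Dusp4 reached 0.03538, Dusp14 0.003758, Spry2 0.0396 and Spry4 0.005156. The cause was not tested.

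Only the numbers 2 and 6 occur in both groups, and they name different mice. Same-numbered arrays deviated at r = −0.21 and −0.04. With the replicate number as a random block, Dusp1 had a difference of −0.40, Dusp6 −0.22 and Dusp10 −0.17. With the fold limit of a call kept, the counts of genes stayed at 0 after adjustment and at 1 without it. At an unadjusted p without a fold limit, the block left 2 genes, Dusp1 and Dusp10.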
